A study of Mus musculus with 8 samples.

Results

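The ephrin and netrin guidance systems were followed here through 33 genes, of 32585 genes or unnamed transcripts on the array. They are 14 Eph receptors, 8 ephrins, 6 netrin receptors and 5 netrins or netrin-Gs, and were chosen as those whose probes carry a RefSeq accession of one of these symbols. All 33 had at least 1 probe, and 31 passed the filter on low signal, being well above background in the culture's channel on at least 4 of the 8 arrays. Unc5d and Ntn4 did not pass, with 0 of 8 arrays well above background for their single probes. Their levels and changes were not detectable on these arrays.

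The 8 two-colour Agilent arrays held RNA of dissociated hippocampal neurons of the mouse, cultured for 10 days, then given a lentivirus and kept for 6 more days. In 4 samples the virus carried Flag-Nr4a1, an epitope-tagged form of the activity-induced orphan nuclear receptor Nr4a1, and in 4 it carried GFP, a fluorescent protein that serves as the control transgene. Every sample was thus infected, and each array compared it with the same commercial reference RNA (Universal Mouse Reference). The labels tie each Nr4a1-labelled array to a GFP-labelled one as a pair, with 3 pairs in batch 1 and 1 in batch 2. The mouse strain, the age of the animals and the promoter that drives the transgene are not given in the sources used here. RNA came from whole cultures, so fewer cells of a type and less RNA per cell cannot be told apart.

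Ephrins are ligands bound to the cell surface, ephrin-As by a lipid anchor and ephrin-Bs by a membrane-spanning segment, and their receptors, the Eph proteins, form the largest family of receptor tyrosine kinases. Signals run both ways between touching cells, and in the hippocampus they help to place axons and to shape dendritic spines and synapses. Netrins are secreted cues that attract axons through DCC and its relative neogenin (Neo1) and repel them when UNC5 receptors take part. Netrin-Gs are lipid-anchored relatives that bind synaptic adhesion proteins of the NGL family (Lrrc4c for netrin-G1, Lrrc4 for netrin-G2) and no DCC or UNC5 receptor.

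Each level below is a log2 ratio on one array, culture RNA over reference RNA. Levels can be compared between arrays for 1 probe, and not between probes. A difference subtracts the GFP-labelled array from the Nr4a1-labelled array of its pair and is averaged over the 4 pairs (n = 4 per group throughout), given as ± the limma standard error. A gene was counted as higher or lower where limma's p, adjusted by Benjamini-Hochberg over all 21116 features tested, was under 0.05.

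The arrays had median signals of 137 to 194 in Cy5, the culture's dye, and 141.5 to 154 in Cy3, the reference's, and 0 saturated spots, and their number limits the precision. The GFP-labelled arrays shared slide 1. Replicates 1 to 3 with Nr4a1 shared slide 2, and replicate 4 with Nr4a1 was on slide 3, each slide with its own scan. No slide or scan held arrays of both groups, so a difference by transgene and one by slide or scan cannot be told apart. The Nr4a1 probe itself gave -2.49 to -1.90 on GFP-labelled and -2.49 to -1.20 on Nr4a1-labelled arrays (0.30 ± 0.15, limma adjusted p = 0.193). It was called without replicate 2 (0.52) and with median centring (0.40). Whether the delivered transcript holds the probe's target is not known, so groups are named by their labels. The 18 pan-neuronal markers listed were all tested. Their mean log2 ratio was 4.19 to 4.31 on GFP-labelled and 3.95 to 4.24 on Nr4a1-labelled arrays. Astrocyte markers averaged 3.22 to 3.37 and 3.28 to 3.42, and microglial markers -2.10 to -2.02 and -2.24 to -2.10. C1qc and P2ry12 were not well above background on any array. The lists are read by different probes, so these means do not give the share of a cell type. Nothing in the labels says that replicates were separate cultures, so the p-values here reflect only how these samples vary, which may be technical variation.

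Of the 31 tested genes, 4 were higher in Nr4a1-labelled arrays (Efna5, Ntng1, Ntn1 and Unc5c) and 4 lower (Epha6, Unc5a, Neo1 and Epha10), and 23 did not pass the test. That is 25.8% of the tested members, against 24.4% of all features, 12.8% of all features being higher and 11.5% lower. The share of members called was thus close to that of the whole array. An unadjusted p under 0.05 was reached by 15 of the 31, against 36.6% of all features. None of the 31 reached a 2-fold difference, against 162 of all 21116 features tested, a share too small to expect any among 31. The median size of a difference was 0.13 among the members and 0.11 among all features. The median signed difference was -0.03 for the members and -0.0035 for all features.

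All 8 calls depended on 2 choices. With the slide added as a random block (consensus correlation 0.863) 0 of the 31 members were called by limma and 0 had an unadjusted p under 0.05, against 12 features called of 21116 (0.0568%). As no slide held both groups, this block cannot separate slide from transgene. With spots of marked non-uniform background kept in, 0 members were called and 6 had an unadjusted p under 0.05. Median centring of the arrays in place of loess gave 7 members higher and 3 lower, and over all features 3463 higher and 1262 lower in place of 2713 and 2433.

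Ligands stand beside their receptors as follows. Of 12 tested ligands 3 were higher and 0 lower, and of 19 tested receptors 1 was higher and 4 lower. In either direction 25% of the ligands and 26.3% of the receptors were called, close to the 24.4% of all features. The difference between ligand and receptor counts was not tested. The medians over each class were near 0, at 0.02 for ligands and -0.03 for receptors.

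**Figure D1:**
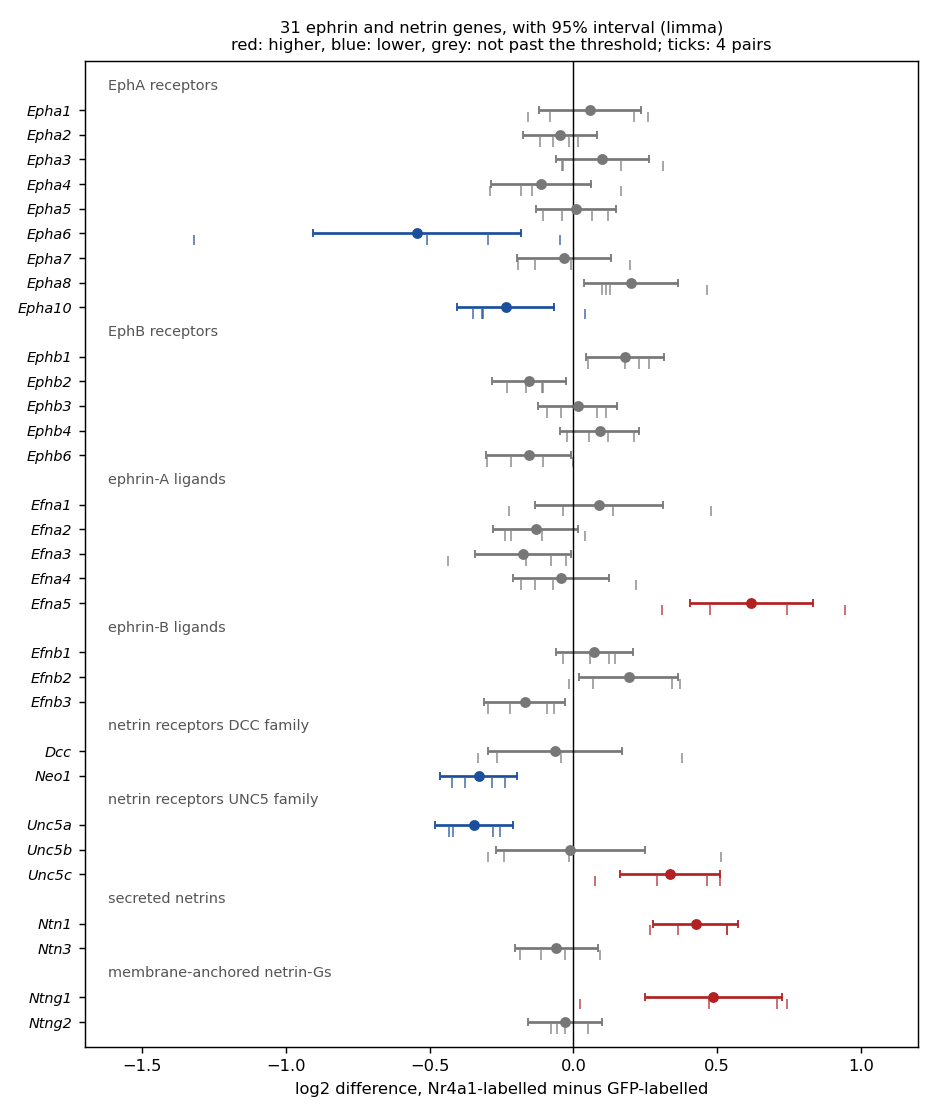
Difference of each of the 31 tested genes on the log2 scale (Nr4a1-labelled minus GFP-labelled), grouped by role, with limma's 95% interval as a bar and the 4 pair differences as ticks below it. Efna5, Ntng1, Ntn1 and Unc5c (red) lie above 0 and Epha6, Unc5a, Neo1 and Epha10 (blue) below it, and the 23 grey genes did not pass the threshold.

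Promoter sequence of the genes that moved is shown for 5 of the 6 whose groups of arrays did not overlap: Efna5, Unc5c and Ntng1, which were higher, and Neo1 and Unc5a, which were lower. Each is the 250 bases before the RefSeq start site in GRCm38.p6, 5′ to 3′ along the gene, with CpG dinucleotides in capitals. The spans are Efna5 chr17:62881318-62881567 (minus strand), Unc5c chr3:141465314-141465563 (plus strand), Ntng1 chr3:110143473-110143722 (minus strand), Neo1 chr9:59036442-59036691 (minus strand) and Unc5a chr13:54949161-54949410 (plus strand).
Efna5: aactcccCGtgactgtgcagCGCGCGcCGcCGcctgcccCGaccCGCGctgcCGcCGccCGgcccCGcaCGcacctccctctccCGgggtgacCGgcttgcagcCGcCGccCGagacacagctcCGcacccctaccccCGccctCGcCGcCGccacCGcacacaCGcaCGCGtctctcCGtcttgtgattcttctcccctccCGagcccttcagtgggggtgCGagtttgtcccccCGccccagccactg
Unc5c: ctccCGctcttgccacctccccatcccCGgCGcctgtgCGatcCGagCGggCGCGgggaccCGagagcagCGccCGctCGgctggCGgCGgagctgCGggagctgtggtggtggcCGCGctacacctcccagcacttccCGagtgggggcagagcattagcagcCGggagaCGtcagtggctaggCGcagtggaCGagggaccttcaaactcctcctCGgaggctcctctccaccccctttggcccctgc
Ntng1: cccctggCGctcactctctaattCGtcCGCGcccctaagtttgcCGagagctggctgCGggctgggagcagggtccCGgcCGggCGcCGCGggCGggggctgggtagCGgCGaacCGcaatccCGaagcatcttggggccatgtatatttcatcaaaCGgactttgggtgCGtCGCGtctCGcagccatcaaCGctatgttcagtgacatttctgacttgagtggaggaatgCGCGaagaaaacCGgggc
Neo1: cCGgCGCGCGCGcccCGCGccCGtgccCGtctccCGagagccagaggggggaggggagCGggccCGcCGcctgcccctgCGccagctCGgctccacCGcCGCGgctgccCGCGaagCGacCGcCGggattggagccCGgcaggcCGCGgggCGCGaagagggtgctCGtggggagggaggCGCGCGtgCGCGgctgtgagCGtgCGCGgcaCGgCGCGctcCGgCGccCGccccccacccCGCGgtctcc
Unc5a: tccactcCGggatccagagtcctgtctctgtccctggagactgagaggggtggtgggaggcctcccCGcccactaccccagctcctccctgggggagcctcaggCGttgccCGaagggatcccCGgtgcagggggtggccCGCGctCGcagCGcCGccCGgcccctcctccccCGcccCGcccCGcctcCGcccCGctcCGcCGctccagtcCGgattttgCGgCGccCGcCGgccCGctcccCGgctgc

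In these stretches Neo1 held 45 CpGs, Efna5 32, Ntng1 and Unc5a 25 each and Unc5c 23. RefSeq windows of 300 bases (250 before and 50 after the start) were matched by symbol for 29 of the 33 members, with 32 windows, and Efnb3, Dcc, Unc5d and Ntn1 had none. Their median GC content was 65.8%, against 59.7% over 15148 windows of tested genes, and the 3 genes that were higher spanned 59.7% to 73.3% and the 4 that were lower 60.3% to 82.7%. The NBRE, the octamer AAAGGTCA that NR4A receptors bind as monomers, was searched on both strands. It was in 0 of the 32 member windows and in 1.13% of the windows of tested genes and 1.51% of all 32851 windows. The shorter half-site AGGTCA, which every NBRE contains, was in 2 member windows, those of Epha2, which was not called, and Ntn4, which was not tested. It was in 13.1% of the windows of tested genes and 16.3% of all windows. A missing match says only that these letters are not in this window.

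Among the ephrin-A ligands, Efna5 changed and the other 4 did not pass the test. Efna5 encodes ephrin-A5, a repulsive cue for growing axons that binds EphA receptors and also EphB2. Its log2 ratios were -1.49, -1.26, -1.25 and -1.65 in the 4 GFP-labelled replicates, in their order, and -0.75, -0.79, -0.94 and -0.70 in the Nr4a1-labelled replicates. Every Nr4a1-labelled array lay above every GFP-labelled one. The gene was 1.53-fold higher (0.62 ± 0.10 on the log2 scale, limma adjusted p = 0.00133), with pair differences of 0.74, 0.48, 0.31 and 0.95. It was called without each replicate in turn (0.51 to 0.72), and in batch 1 alone it stood at 0.51, with the single pair of batch 2 at 0.95.

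Efna1, Efna3 and Efna4 lie next to each other on chromosome 3 with no other protein-coding gene between neighbours, and none of them passed. Efna3 differed by -0.18 ± 0.07 (limma adjusted p = 0.119) and was lower in 4 of 4 pairs, and its second probe gave -0.16 ± 0.06. Efna1 stood at 0.09 ± 0.10 and Efna4 at -0.04 ± 0.07. Efna2 differed by -0.13 ± 0.07 (limma adjusted p = 0.179), with 1.27 to 1.44 on GFP-labelled and 1.05 to 1.33 on Nr4a1-labelled arrays. The 95% intervals of Efna1, Efna2 and Efna4 included 0, and that of Efna3 ran from -0.34 to -0.01.

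None of the 3 ephrin-B ligands passed. Efnb2, an arterial marker in vessels and a synaptic ligand in neurons, gave 0.43, 0.52, 0.58 and 0.41 on GFP-labelled and 0.80, 0.58, 0.56 and 0.75 on Nr4a1-labelled replicates. The difference was 0.19 ± 0.08 (limma adjusted p = 0.101), with replicate 3 at -0.01. Efnb3, which halts growing axons at the midline, had the opposite sign at -0.17 ± 0.06 (limma adjusted p = 0.0780), from 3.20 to 3.41 on GFP-labelled and 3.10 to 3.22 on Nr4a1-labelled arrays, lower in 4 of 4 pairs. Efnb1 differed by 0.07 ± 0.06. The 95% intervals were 0.02 to 0.36 for Efnb2 and -0.31 to -0.03 for Efnb3. Like the other intervals given here, they carry no term for slide or scan.

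Of the 9 EphA receptors, 2 were lower and 0 higher. Epha6, a receptor of brain and sensory neurons, gave 4.09, 4.25, 3.98 and 3.64 on GFP-labelled and 3.79, 3.74, 2.66 and 3.59 on Nr4a1-labelled replicates. The groups overlapped, and Nr4a1-labelled replicate 3 was the lowest array. The gene was 1.46-fold lower (-0.54 ± 0.16, limma adjusted p = 0.0347), but the pair differences ran from -0.05 in replicate 4 to -1.32 in replicate 3. The call was lost without replicate 1 (-0.63) or replicate 3 (-0.29) and without the pair block, and the Cy5 channel alone gave -0.19 while Agilent's own log ratio gave -1.38.

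Epha10 encodes a receptor without catalytic activity. Its probe was dim, with a signal well above background on 3 GFP-labelled arrays and on 2 with Nr4a1. It gave 0.41, 0.41, 0.72 and 0.44 on the GFP-labelled and 0.45, 0.09, 0.37 and 0.13 on the Nr4a1-labelled replicates, so the groups overlapped. The difference was -0.24 ± 0.08 (limma adjusted p = 0.0462), lower in 3 of 4 pairs. The call was lost without replicate 2 (-0.21), 3 (-0.20) or 4 (-0.21), without the pair block and with no background correction (-0.17).

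The other 7 EphA receptors did not pass. Epha4, the broadly binding receptor that ephrins of neighbouring astrocytes engage on dendritic spines, stood at 4.54 to 4.74 on GFP-labelled and 4.37 to 4.71 on Nr4a1-labelled arrays (-0.11 ± 0.08, 95% interval -0.29 to 0.06). Epha8 was 0.84, 0.67, 0.67 and 0.52 against 0.95, 0.77, 0.80 and 0.99 (0.20 ± 0.07, limma adjusted p = 0.0759), higher in 4 of 4 pairs but by 0.46 in replicate 4 and by at most 0.13 in the others. Epha3 differed by 0.10 ± 0.07, Epha1 by 0.06 ± 0.08 and Epha2 by -0.05 ± 0.06. Epha8 was called higher with median centring (0.26) and on the authors' deposited value table (0.20), and the Cy5 channel alone gave -0.015. Of all features 36.1% were called on the authors' table, against 24.4% as reported.

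Epha5 and Epha7 were read by several probes that differed in sign. For Epha5, a main receptor of ephrin-As in the forebrain, the brighter probe differed by 0.01 ± 0.06. It averaged 0.44 on GFP-labelled and 0.45 on Nr4a1-labelled arrays. The other probe averaged 5.91 and 5.79 and differed by -0.12 ± 0.06 (limma adjusted p over probes 0.185). Neither was called. The authors' deposited value table held the other Epha5 probe and not the brighter one, and which of them reads Epha5 better was not tested. Epha7 encodes a receptor with full-length and truncated forms. Its brightest probe (A_55_P1969058, assigned to NM_001122889) differed by -0.03 ± 0.07 and another with the same accession by 0.10 ± 0.09. The probe assigned to NM_010141 (A_52_P504787) was higher, with 2.35, 2.44, 2.56 and 2.31 on GFP-labelled and 3.12, 2.80, 2.59 and 2.66 on Nr4a1-labelled replicates (0.38 ± 0.10). Its limma adjusted p over 25783 probes was 0.0224, and 23.8% of those probes were called. A single value for Epha7 therefore depends on the probe, and the authors' deposited value table, which held this probe and not the brightest, gave 0.37.

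**Figure D2:**
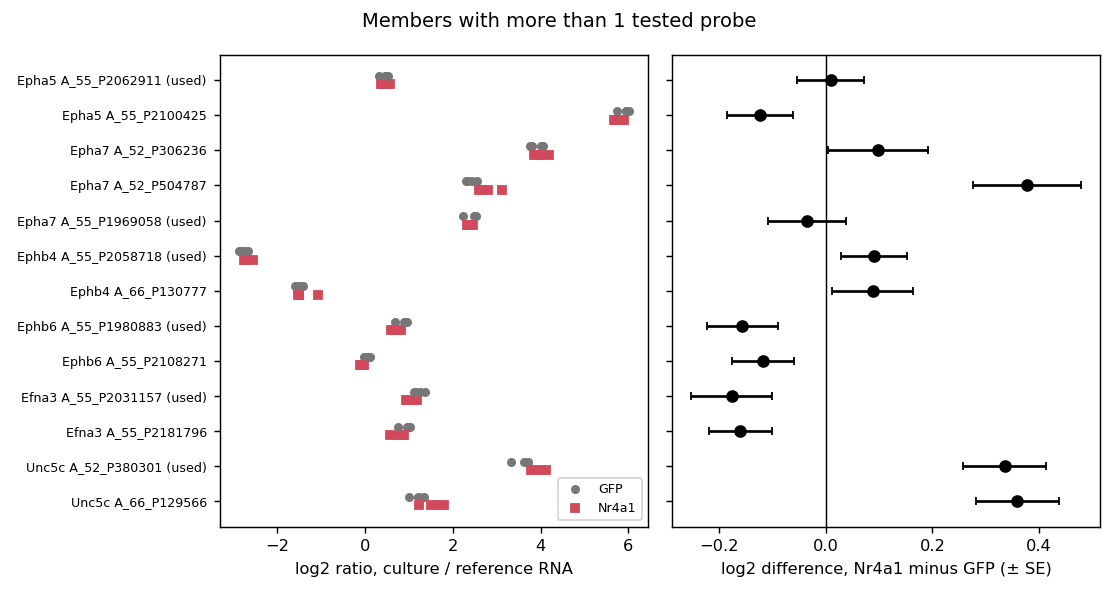
Probes of the 6 genes with more than 1 tested probe: log2 ratio over the reference on each array at left (circles GFP-labelled, squares Nr4a1-labelled) and the difference with its SE at right. The Unc5c, Ephb4, Ephb6 and Efna3 probes agree in sign within each gene, whereas the Epha7 probes run from -0.03 to 0.38 and the Epha5 probes from -0.12 to 0.01. Ratios are to be compared within a row only.

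None of the 5 EphB receptors passed. Ephb1 and Ephb2, kinases that gather NMDA receptors at excitatory synapses and promote spines, differed in sign. Ephb1 gave 4.03, 3.83, 3.96 and 4.06 on GFP-labelled and 4.21, 4.09, 4.01 and 4.28 on Nr4a1-labelled replicates (0.18 ± 0.06, limma adjusted p = 0.0583). Ephb2 gave 0.50, 0.42, 0.45 and 0.31 against 0.27, 0.31, 0.28 and 0.20 (-0.15 ± 0.06, limma adjusted p = 0.0825). Each had the same sign in 4 of 4 pairs, with 95% intervals of 0.04 to 0.32 and -0.28 to -0.02. Ephb6, a kinase-dead receptor, differed by -0.16 ± 0.07, and Ephb3 by 0.01 ± 0.06. Ephb4, known from veins as the receptor of ephrin-B2, differed by 0.09 ± 0.06. Ephb1 was called higher with median centring, in the Cy5 channel alone, on the authors' deposited value table and without replicate 3, while all spots gave -0.26 and Agilent's own log ratio -0.12. Ephb2 was called lower with the batch as the block, in Agilent's own log ratio and on the authors' deposited value table.

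Ntn1, which encodes netrin-1, was higher in Nr4a1-labelled arrays. Its tested probe gave -0.61, -0.58, -0.45 and -0.88 on GFP-labelled and -0.07, -0.22, -0.18 and -0.34 on Nr4a1-labelled replicates, and the groups did not overlap. The gene was 1.34-fold higher (0.42 ± 0.07, limma adjusted p = 0.00142), higher in 4 of 4 pairs by 0.27 to 0.53. It was called without each replicate in turn (0.39 to 0.48) and in Agilent's own log ratio (0.79). A second Ntn1 probe was above background on none of the arrays in Cy5. Ntn3, a related secreted netrin, differed by -0.06 ± 0.06, and GFP-labelled replicate 4 was its lowest array.

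Ntng1, which encodes the membrane-anchored netrin-G1 of axons, gave 1.96, 2.05, 2.24 and 1.76 on GFP-labelled and 2.67, 2.52, 2.26 and 2.50 on Nr4a1-labelled replicates. All Nr4a1-labelled arrays were above all GFP-labelled ones, though replicate 3 of the 2 groups lay only 0.02 apart. It was 1.401-fold higher (0.49 ± 0.11, limma adjusted p = 0.00890). The call was lost without replicate 1 (0.41) and without replicate 4 (0.40), the latter being batch 1 alone. Its reference channel was well above background on 0 of 8 arrays, so the ratio over the reference is not a measured level there, and Agilent's own log ratio gave -0.071. A second Ntng1 probe was not well above background in Cy5 on any array. Ntng2 differed by -0.03 ± 0.06.

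Of the 5 tested netrin receptors, Unc5c was higher, Unc5a and Neo1 were lower, and Dcc and Unc5b did not pass. Unc5a, a receptor that turns netrin attraction into repulsion, gave 5.96, 6.01, 6.15 and 6.18 on GFP-labelled and 5.68, 5.60, 5.72 and 5.93 on Nr4a1-labelled replicates. The groups did not overlap, and the gene was 1.27-fold lower (-0.35 ± 0.06, limma adjusted p = 0.00275), with pair differences of -0.43 to -0.26. The call held without each replicate in turn (-0.38 to -0.32) and was lost in Agilent's own log ratio (-0.24), and the Cy5 channel alone gave -0.71.

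Its paralog Unc5c, which also mediates repulsion, moved the other way. It gave 3.72, 3.62, 3.72 and 3.32 on GFP-labelled and 4.01, 4.13, 3.79 and 3.79 on Nr4a1-labelled replicates, with no overlap. The difference was 0.34 ± 0.08 (1.26-fold, limma adjusted p = 0.0116), and a second probe for the same transcript gave 0.36 ± 0.08. Without replicate 2 (0.28) or replicate 4 (0.29) the call was lost. The reference channel was well above background on 1 of 8 arrays. The value turned to -0.21 in Agilent's own log ratio and to -0.30 with all spots in the background correction.

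Neo1, which encodes neogenin, a receptor for netrins and for repulsive guidance molecules, gave 1.02, 0.99, 0.99 and 0.86 on GFP-labelled and 0.78, 0.71, 0.57 and 0.48 on Nr4a1-labelled replicates. The groups did not overlap. It was 1.26-fold lower (-0.33 ± 0.06, limma adjusted p = 0.00333), lower in 4 of 4 pairs (-0.42 to -0.24). The call held without each replicate in turn (-0.36 to -0.30) and was lost with median centring (-0.24).

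Dcc, the receptor for netrin attraction, did not pass. It ran from -0.43 to -0.21 on GFP-labelled and from -0.66 to -0.05 on Nr4a1-labelled arrays (-0.07 ± 0.10, limma adjusted p = 0.696). Replicate 1 differed by 0.38 and the other 3 by -0.33 to -0.04, and 2 further Dcc probes were not well above background in Cy5 on any array. Unc5b, the family member of blood vessels, was spread more widely in Nr4a1-labelled arrays (-2.18 to -1.19) than in GFP-labelled ones (-1.94 to -1.71), with a difference of -0.01 ± 0.12. Its pair difference was 0.51 in replicate 3 and -0.30 to -0.02 in the others.

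Over the 31 genes, 6 had groups that did not overlap, 4 higher (Efna5, Ntn1, Ntng1 and Unc5c) and 2 lower (Neo1 and Unc5a), against 24.4% of all features without overlap. Replicate 3 gave the smallest pair difference of all 4 pairs for Efna5 (0.31), Ntn1 (0.27), Ntng1 (0.02) and Unc5c (0.08). It also gave the largest fall for Epha6 (-1.32), Unc5a (-0.43), Neo1 (-0.42) and Epha10 (-0.35). Genes called higher and genes called lower thus all had their lowest signed difference in the same pair. How often this holds among the uncalled members or all features was not counted, so it is not shown to be particular to these genes. The cause was not tested.

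**Figure D3:**
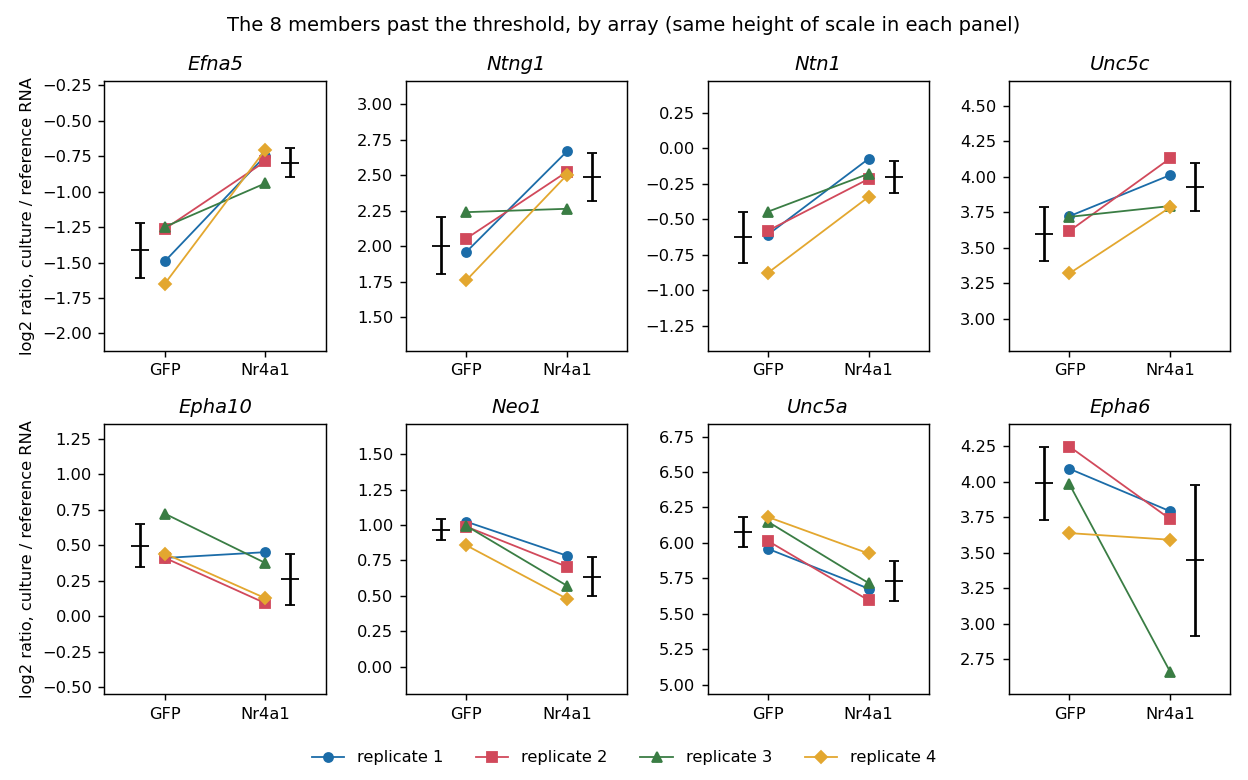
Log2 ratio of culture over reference RNA on each array for the 8 genes past the threshold, with lines joining the arrays of a pair and bars giving mean and SD (n = 4 per group). Efna5, Ntng1, Ntn1, Unc5c, Neo1 and Unc5a do not overlap between groups, whereas Epha10 and Epha6 do, and replicate 3 of Epha6 falls furthest, to 2.66.

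Genes that work beside these ligands and receptors were read from 3 lists. Over all features 24.4% were called, the share to set beside each list. Of 45 Eph and ephrin signalling partners, 5 were higher, 6 lower and 34 not called (24.4% called), with a median difference of -0.0080. The 4 of smallest p were Ptpro, a phosphatase that acts on Eph receptors (-0.55 ± 0.08, limma adjusted p = 0.000681), Ngef (ephexin), a RhoA activator bound by EphA4 (0.43 ± 0.07), the kinase gene Pak1 (-0.40 ± 0.07) and Pik3r1, a PI3-kinase subunit (0.33 ± 0.06). Of 30 netrin signalling partners, 4 were higher, 5 lower and 21 not called (30% called), with a median of -0.05. Ablim1, an actin-binding protein, fell by 0.64 (-0.64 ± 0.08) and Dock1, the Rac activator that DCC engages, rose by 0.54 ± 0.08, and Pak1 and Pik3r1 are on this list too.

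Among 20 other ligands and co-receptors of the netrin system, 18 were tested, 2 were higher, 3 lower and 13 not called (27.8% called), with a median of -0.012. FLRT proteins are ligands of UNC5 receptors. Flrt3 fell by 0.67 (5.21 ± 0.07 against 4.54 ± 0.13, SD, n = 4; limma adjusted p = 0.000141) and Flrt2 by 0.40. Ptprf, a receptor phosphatase, fell by 0.33, and Adgrl3, the latrophilin that joins FLRT and UNC5, rose by 0.31. Lrrc4c, the binding partner of netrin-G1, chosen after values were seen and outside the naming rule, differed by 0.34 ± 0.25 (limma adjusted p = 0.368). Each gene once, 10 of 85 partners were higher and 12 lower, 25.9%, close to the 24.4% of all features. With the slide as a random block, or with all spots in the background correction, 0 of these partners were called.

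**Figure D4:**
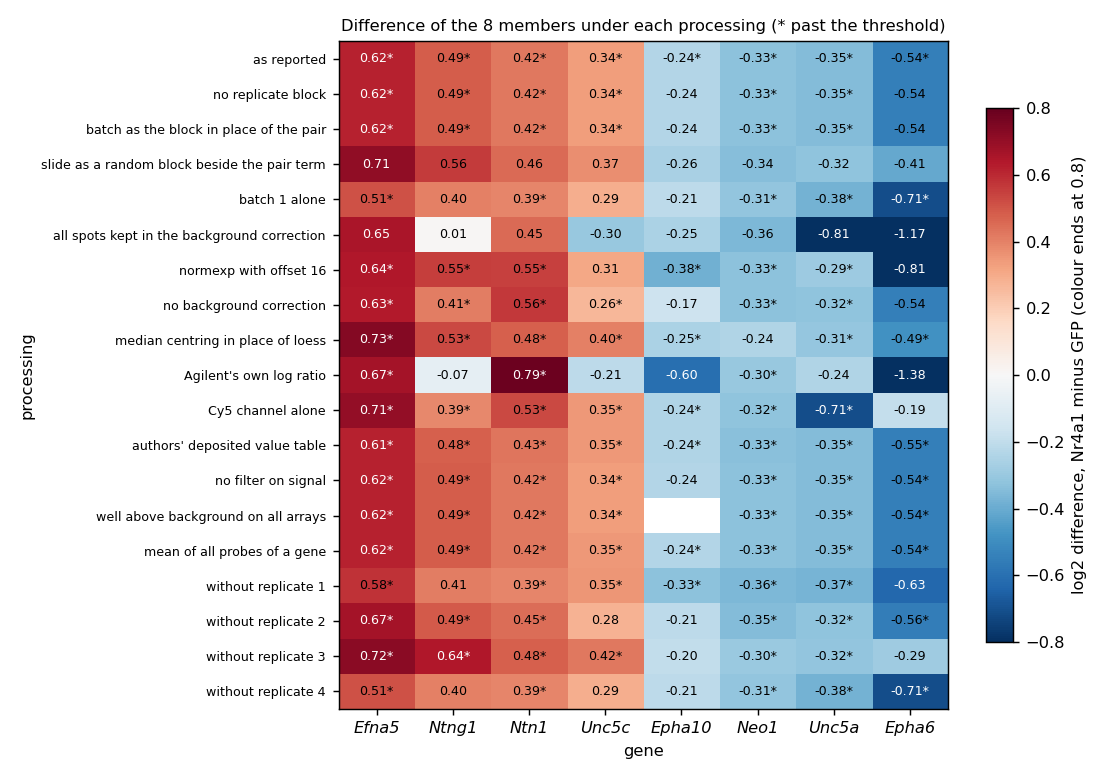
Log2 difference of the 8 genes (columns) as reported and under 18 other processings (rows), with a star where limma's adjusted p was under 0.05 and a blank where the gene was not tested. No gene has a star with the slide as a random block or with all spots in the background correction, while Efna5 and Ntn1 keep it in the other 16.

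Some markers of other cells were called between the same groups, and their part in the results above was not tested. The counts below stand beside 12.8% of all features called higher and 11.5% called lower, and several lists were near these shares. Of 12 tested markers of the oligodendrocyte lineage 6 were higher and 2 lower, with a mean log2 ratio of 0.77 to 0.91 on GFP-labelled and 1.099 to 1.14 on Nr4a1-labelled arrays. Proliferation markers were higher in 6 of 13 and lower in 0, with means of -3.62 to -3.42 and -3.24 to -3.14. Of 13 astrocyte markers 3 were higher and 0 lower, with means of 3.22 to 3.37 and 3.28 to 3.42. Of 10 fibroblast and meningeal markers 1 was higher and 3 lower (means -3.91 to -3.76 and -3.99 to -3.90), and of 9 tested endothelial and mural markers 2 and 1 (-1.22 to -1.16 and -1.20 to -1.13), with Cdh5, Esam and Tek not well above background on any array. Of 7 tested microglial markers 0 were higher and 1 was lower. Among the 18 pan-neuronal markers 2 passed as higher and 5 as lower, among 11 glutamatergic markers 2 and 2 (3.42 to 3.57 and 3.37 to 3.53) and among 12 GABAergic markers 2 and 1 (2.47 to 2.69 and 2.59 to 2.66). Cspg4 and Pdgfra stood on more than 1 of these lists.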

How the data were processed

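Each array's file is scanner output of the Feature Extraction software (version 11.0.1.1, per the file headers). These files hold spot and background median intensities on a linear scale, 0 or 1 quality marks and a log10 ratio of Cy5 over Cy3, as the authors deposited them. The deposited value table holds log2 ratios for 24275 probes, with centring and probe choice unstated. Its columns matched the log2 ratios computed here at 0.998 to 1.00 across probes (medians 0.0240 to 0.0312), so its scale and direction were read as log2 of culture over reference. That software and limma are the tools in the submitters' processing notes, with no settings. Other steps are not given in the sources used here.

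Here, spots with non-uniform background were left out (37 on Nr4a1-labelled replicate 2, at most 10 elsewhere), medians were corrected with normexp (offset 50) and ratios normalised by loess within arrays. Control and outlier spots were left out and spots of a probe averaged. A probe needed Cy5 well above background on at least 4 arrays and 3 values per group. Symbols came from a RefSeq table of GRCm38.p6, which named 26581 of 39429 probes, and the brightest probe stood for a gene. limma 3.58.1 (R 4.3.3, lmFit and eBayes, two-sided) was fitted with the pair as a block over 21116 features, and was tested on simulated data. The labels' pair tag gave the block. Deviations within pairs correlated at -0.10, 0.28, -0.02 and 0.42 for replicates 1 to 4. All 33 members, the 4 partners of smallest p per list and Nr4a1 were named by rule. Members, lists and processing, including the spots left out, were chosen with earlier results of these data known. The offset of 50 shrinks differences of dim probes.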

Additional observations from a re-analysis of the deposited data

Results flagged for a closer look

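In 3 of the 62 groups of 4 arrays checked, 1 array stood apart from the other 3 by more than Dixon's 95% critical value for the gap over the range. About 1 in 20 groups is flagged so by chance. Epha10 was 0.72 on GFP-labelled replicate 3, against 0.44 for the next array. Efnb3 was 3.22 on Nr4a1-labelled replicate 4, above 3.12 for the next. Ntn3 was 0.66 on GFP-labelled replicate 4, below 1.05 for the next.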

How the results depend on the processing

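The 8 called genes were set against 18 other processings, which gave 143 comparisons. Batch 1 alone and leaving out replicate 4 are the same 3 pairs and are counted under both names here and below. Direction and call held in 99, direction held with the call lost in 41, and the direction turned in 3. The count of members higher (4) became 0 with the slide as a random block, 0 with all spots in the background correction, 2 in batch 1 alone, 2 in Agilent's own log ratio, 7 with median centring and 7 on the authors' deposited value table, and ran from 2 to 6 when 1 replicate was left out. The count lower (4) became 0 with the slide block, 0 with all spots, 2 with no background correction and 2 in Agilent's own log ratio, and ran from 2 to 3 when 1 replicate was left out. Without the pairing (no replicate block) 4 members were higher and 2 lower, Epha6 and Epha10 losing their calls. Signalling partners called (22) became 0 with the slide block and 0 with all spots, and were 15 to 21 when 1 replicate was left out. Directions turned, with a call on at least 1 side, for Unc5c with all spots (-0.30) and in Agilent's own log ratio (-0.21), for Ntng1 in Agilent's own log ratio (-0.071), for Adgrl3 with all spots (-0.036) and for Epha7 on the authors' table (0.37), where another probe stood for the gene. The cause was not tested for the others. Over all features, 2713 higher and 2433 lower became 8 and 4 with the slide block, 128 and 97 with all spots, 1510 and 1350 in Agilent's own log ratio, and 1768 and 1619 without replicate 1. Uncalled members were called in 16 of 411 comparisons, and in 17 others their sign changed by more than 1 SE without a call. The reference channel was well above background on 0 of 8 arrays for Ntng1, Epha3 and Epha10 and on 1 for Unc5c and Epha6, which limits their ratios.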
